A study of Mus musculus with 8 samples.

Results

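The genes described here encode 10 cell-surface or secreted proteins reported to bind or relay extracellular HMGB1: Ager, Tlr2, Tlr4, Ly96, Cd14, Cxcr4, Havcr2, Cd24a, Trem1 and Sdc1. They were taken by gene symbol as a list, and all 10 were measured among the 19938 genes tested. Each had exactly 1 probe set assigned to its symbol alone. RNA came from livers of male littermates aged 8 weeks. In 4 samples Hmgb1 had been deleted with a Cre recombinase driven by the Albumin promoter, which is active in hepatocytes, and 4 samples came from mice that carried floxed Hmgb1 alleles. Cre is named only in the titles of the deleted group, so the effect of Cre itself and that of the deletion cannot be told apart. Kupffer cells, endothelial cells and leukocytes lie outside the reach of the Albumin promoter, and these are the cells in which most of the receptors are known to act. The labels disagree on the tissue (whole liver in the protocol, liver stellate cells in the characteristics) and on the strain (C57Bl/6 after 5 backcrosses, or Balb/c). The log2 intensity of Alb, the hepatocyte product albumin, was 13.26 to 14.03, and 99.99% of the genes tested had a lower mean.

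HMGB1 is a DNA-binding protein of the nucleus that dying or activated cells release, and outside the cell it acts as an alarm signal. RAGE, encoded by Ager, binds HMGB1 and S100 proteins and signals to NF-kappaB. TLR4 recognises lipopolysaccharide and HMGB1 together with its co-receptor MD-2, the product of Ly96, and CD14 hands ligands to it, while TLR2 uses CD14 as well. CXCR4 responds to the chemokine CXCL12 and to CXCL12 bound to HMGB1, TREM-1 amplifies Toll-like receptor signals in myeloid cells, TIM-3 (Havcr2) and CD24 restrain responses, and the heparan sulfate chains of syndecan-1 (Sdc1) bind HMGB1. In bulk liver RNA, fewer cells of a type and less RNA per cell cannot be told apart.

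The targeted gene was examined first. On its own probe set Hmgb1 had log2 intensities of 4.91, 4.20, 4.53 and 4.74 in deleted livers, against 5.35, 5.42, 5.45 and 5.78 in floxed control livers. All 4 deleted values lay below all 4 controls, and Hmgb1 fell by 0.905 on the log2 scale (SE 0.14, limma adjusted p = 0.0216). That probe set was dim, and the call was lost without deleted 3, deleted 4, control 3 or control 4 (adjusted p of 0.0561 to 0.0797). Of 34 further probe sets that Hmgb1 shares with other symbols, 33 were lower past the threshold, with a median log2 fold change of −2.15. These were called in a separate limma fit, adjusted over all single-symbol probe sets and these 34. The per-array medians of those 34 averaged 7.21 ± 0.12 in deleted and 9.34 ± 0.15 in floxed control livers (SD, n = 4 each). Array medians lay between 6.08 and 6.22, and floxed control 1 stood apart on the first principal component, at −26.6 against −11.4 to 11.7 for the other 7 arrays.

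In the deleted livers 0 of the 10 receptor genes passed an adjusted p of 0.05 in limma, against 138 of 19938 genes, or 0.692%, of all genes tested. Before adjustment 1 of 10, Sdc1, had a p under 0.05, against 9.46% of all genes. Deleted and control values overlapped for all 10, whereas they did not overlap for 5.57% of all genes. Adjusted p-values of the 10 ran from 0.487 for Sdc1 to 0.996 for Tlr4. Of the 10 genes 8 had a lower and 2, Sdc1 and Havcr2, a higher mean in deleted livers, against 49.8% of all genes lower. The log2 fold change of Tlr4, −0.0025, was too near 0 to give a direction. Those of Tlr2, Tlr4, Cd24a, Ly96 and Trem1 changed sign when certain single arrays were left out. The median log2 fold change of the 10 was −0.055, against 0.0 for all genes. The pooled SD within groups ran from 0.0399 for Havcr2 to 0.53 for Ly96, against a median of 0.114 for all genes. The 95% intervals of 9 of the 10 lay within 1.5-fold in either direction and those of 5 within 1.2-fold. The share of all genes with intervals as narrow was not counted. Ly96 alone had an interval reaching beyond 1.5-fold. These intervals bound the change in array signal, which for the dim probe sets described next need not be the change in RNA.

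**Figure D1:**
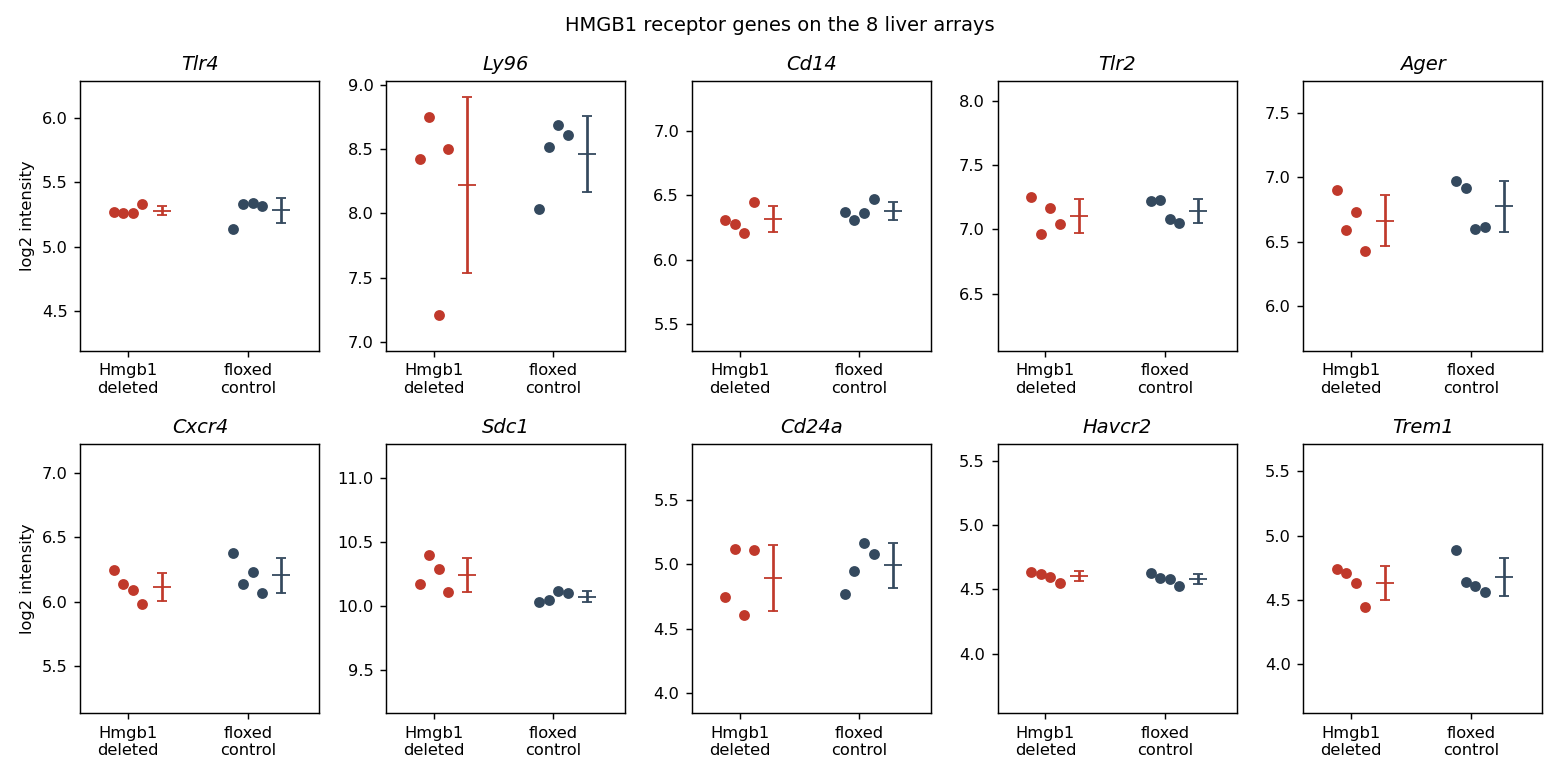
Log2 intensity of each receptor gene (vertical axes, all spanning the same number of log2 units) on the 4 Hmgb1 deleted arrays (red, left) and the 4 floxed control arrays (blue, right), ordered by replicate number, with bars for mean ± SD. The groups overlap for all 10 genes, and Ly96 on deleted 3, at 7.21, lies below every other Ly96 value.

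How bright each probe set was against genes that liver does not use was gauged with 1027 olfactory receptor genes, which had a median log2 intensity of 4.72 and a 95th percentile of 6.04. The means of 6 receptor genes, Sdc1, Ly96, Tlr2, Ager, Cd14 and Cxcr4, lay above that percentile, and those of 4, Tlr4, Cd24a, Trem1 and Havcr2, lay below it. Of all genes tested 60.4% lay above it, so 6 of 10 is near the share of all genes. For Sdc1 all olfactory receptor genes had a lower mean, for Ly96 99.8% of them and for Tlr2 99.2%. For Ager it was 98.6%, for Cd14 97.5% and for Cxcr4 96.3%. In contrast, 78.9% of the olfactory receptor genes had a lower mean than Tlr4, 63.3% than Cd24a, 44.6% than Trem1 and 40.9% than Havcr2. For these 4 genes expression in liver could not be told from the signal of genes that the organ does not use. Brightness also depends on each set's own probes, so these shares do not rank the amounts of RNA of different genes.

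**Figure D2:**
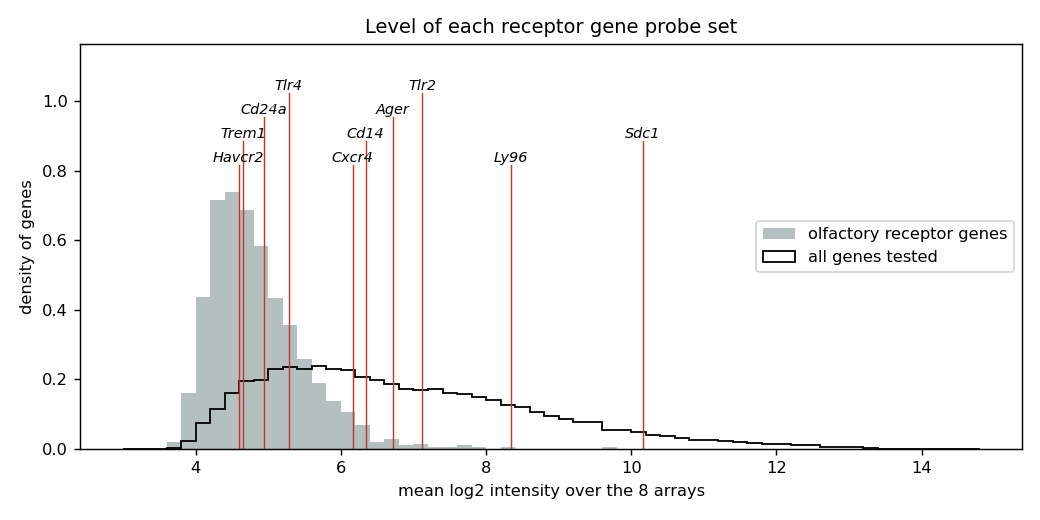
Mean log2 intensity over the 8 arrays (horizontal axis) of each receptor gene (red lines), with the distributions of 1027 olfactory receptor genes (grey) and all 19938 genes tested (black outline) as densities. Sdc1 at 10.16 lies above the whole grey distribution, whose highest gene is at 9.62, and Ly96 at 8.34 lies above 99.8% of it, while Havcr2 at 4.59, Trem1 at 4.65, Cd24a at 4.94 and Tlr4 at 5.28 lie within it.

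Promoter sequences, the 250 bases before the start in RefSeq on GRCm38.p6, are shown for 3 receptor genes from the top, the lower margin and the inside of that range. Entries were found for 6 of the 10 genes. They were searched on both strands for the GC box GGGCGG, which Sp1-type factors bind, and for TATAAA, and matches are in capitals.
Sdc1 (chr12:8771146-8771395, plus strand): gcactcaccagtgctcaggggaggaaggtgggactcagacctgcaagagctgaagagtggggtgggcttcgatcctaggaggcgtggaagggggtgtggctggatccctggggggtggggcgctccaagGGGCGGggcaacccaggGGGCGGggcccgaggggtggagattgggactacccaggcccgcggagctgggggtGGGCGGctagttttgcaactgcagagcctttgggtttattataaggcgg
Cxcr4 (chr1:128592300-128592549, minus strand): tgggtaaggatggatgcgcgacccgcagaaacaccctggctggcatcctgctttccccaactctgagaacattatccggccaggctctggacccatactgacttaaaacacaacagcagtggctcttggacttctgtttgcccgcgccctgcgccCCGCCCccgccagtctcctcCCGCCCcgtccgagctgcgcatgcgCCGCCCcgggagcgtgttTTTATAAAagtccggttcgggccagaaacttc
Havcr2 (chr11:46454681-46454930, plus strand): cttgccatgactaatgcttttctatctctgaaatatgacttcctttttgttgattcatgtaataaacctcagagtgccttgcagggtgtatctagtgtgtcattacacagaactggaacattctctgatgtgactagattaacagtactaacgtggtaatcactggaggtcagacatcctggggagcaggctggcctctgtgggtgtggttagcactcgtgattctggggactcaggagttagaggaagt
The Sdc1 window held 3 GC boxes, 10 CpG dinucleotides and 66.0% G or C. The Cxcr4 window held 3 GC boxes, 2 overlapping TATAAA matches (1 on each strand) and 19 CpG, with 61.2% G or C. In the Havcr2 window neither motif was found, and it had 2 CpG and 44.8% G or C. A GC box was present in 32.7% and TATAAA in 12.4% of the 32851 promoter windows of the same length. Fewer CpG than in Sdc1 were found in 62.2% of the windows, fewer than in Cxcr4 in 80.3% and fewer than in Havcr2 in 18.8%. These matches describe the letters of the windows, and no binding was measured.

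Syndecan-1 carries heparan sulfate chains and is the main syndecan of the hepatocyte surface, where it takes part in the clearance of lipoproteins. Sdc1 had log2 intensities of 10.17, 10.40, 10.29 and 10.11 in deleted livers, against 10.03, 10.05, 10.12 and 10.10 in floxed control livers. Deleted 1 to 3 lay above every control, and deleted 4 lay between control 4 and control 3. The mean was 10.24 ± 0.13 in deleted and 10.07 ± 0.042 in control livers (SD, n = 4 each), a log2 fold change of 0.167 (SE 0.072, 95% interval 0.0084 to 0.33), or 1.12-fold with an interval of 1.01 to 1.25. It did not pass over all genes (limma adjusted p = 0.487, and 0.17 to 0.817 across the alternatives). The difference stayed positive with any 1 array left out, between 0.115 without deleted 2 and 0.212 without deleted 4.

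Among the proteins that work with TLR4, Tlr4 itself had log2 intensities of 5.27, 5.26, 5.26 and 5.33 in deleted livers, against 5.14, 5.33, 5.34 and 5.32 in control livers. Control 1 was the lowest of the 8 and the other 7 lay within 5.26 to 5.34. Its log2 fold change was −0.0025 (SE 0.064, 95% interval −0.14 to 0.14), on a probe set brighter than 78.9% of the olfactory receptor genes but below their 95th percentile. Leaving out single arrays gave −0.05 without control 1 to 0.0167 without control 3.

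Ly96, encoding MD-2, had log2 intensities of 8.42, 8.75, 7.21 and 8.50 in deleted livers, against 8.03, 8.52, 8.69 and 8.61 in control livers. Deleted 3 was the lowest of all and control 1 the next, whereas the other 3 deleted arrays averaged 8.56. The mean was 8.22 ± 0.69 in deleted and 8.46 ± 0.30 in control livers (SD, n = 4 each), with a log2 fold change of −0.243 (SE 0.28, 95% interval −0.87 to 0.38, adjusted p = 0.952). Without deleted 3 the difference was 0.094, so this array set its sign. Within groups Ly96 varied more than 99.6% of all genes, with a pooled SD of 0.53 against a median of 0.114. On deleted 3 the mean log2 intensity of Kupffer cell and macrophage markers was 8.59. It was 8.46 to 8.58 on the other deleted and 8.50 to 8.61 on the control arrays. Within that list Lyz2, Vsig4 and Slc40a1, its genes with the smallest p, were lowest of the 8 arrays on deleted 3, at 8.96, 10.28 and 9.34. The part of macrophages in the Ly96 value was not tested.

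Cd14, which delivers lipopolysaccharide to TLR4 and MD-2, had log2 intensities of 6.31, 6.28, 6.21 and 6.45 in deleted livers, against 6.37, 6.31, 6.36 and 6.47 in control livers. The highest value of each group came from its array 4, and the groups overlapped over most of their range. The log2 fold change was −0.065 (SE 0.068, 95% interval −0.22 to 0.086, adjusted p = 0.936), and it ran from −0.111 without deleted 4 to −0.0308 without deleted 3. Tlr2, which senses bacterial lipopeptides, had log2 intensities of 7.25, 6.96, 7.17 and 7.04 in deleted livers, against 7.22, 7.23, 7.08 and 7.05 in control livers. Deleted livers held both the highest and the lowest Tlr2 value. Its log2 fold change was −0.04 (SE 0.079, 95% interval −0.21 to 0.13, adjusted p = 0.976), and without deleted 2 it was 0.0083.

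Ager, encoding RAGE, a receptor best known from lung epithelium, had log2 intensities of 6.90, 6.59, 6.73 and 6.43 in deleted livers, against 6.97, 6.92, 6.60 and 6.61 in control livers. Deleted 4 was the lowest and control 1 the highest, with the remaining values interleaved. The mean was 6.66 ± 0.20 in deleted and 6.78 ± 0.20 in control livers (SD, n = 4 each), a log2 fold change of −0.113 (SE 0.12, 95% interval −0.37 to 0.15, adjusted p = 0.933). Without deleted 4 it was −0.035 and without deleted 1 −0.192.

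Cxcr4, the CXCL12 receptor of leukocytes and endothelium, had log2 intensities of 6.25, 6.14, 6.09 and 5.98 in deleted livers, against 6.38, 6.14, 6.23 and 6.07 in control livers. Again control 1 was the highest and deleted 4 the lowest. The log2 fold change was −0.09 (SE 0.083, 95% interval −0.27 to 0.093, adjusted p = 0.91) and shrank to −0.0317 without control 1. The median of the olfactory receptor genes was also highest on control 1, at 4.79, against 4.69 to 4.75 on the deleted and 4.68 to 4.72 on the other control arrays, and deleted 4 had the lowest median of its group. Of all genes 42.9% were highest on control 1 among the controls, as were 4 of the 10 receptor genes (Ager, Cxcr4, Havcr2 and Trem1). The part of this array-wide shift in the values of single receptors was not tested.

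The remaining 3 genes, Cd24a, Havcr2 and Trem1, lay in the range of the olfactory receptor genes. Cd24a, which marks bile duct and progenitor cells in liver as well as leukocytes, had log2 intensities of 4.75, 5.12, 4.61 and 5.11 in deleted livers, against 4.77, 4.95, 5.17 and 5.08 in control livers. Deleted 3 was the lowest of the 8 and control 3 the highest, and the log2 fold change of −0.095 (SE 0.13, 95% interval −0.37 to 0.18) became 0.00083 without deleted 3. Havcr2, the inhibitory receptor TIM-3 of T cells and myeloid cells, had 4.64, 4.62, 4.60 and 4.55 in deleted livers, against 4.63, 4.59, 4.58 and 4.53 in control livers on the log2 scale. The 8 values of Havcr2 covered a narrow range, and only 1.86% of all genes had a smaller spread within groups. Its log2 fold change was 0.02 (SE 0.056, 95% interval −0.10 to 0.14). Trem1, an activating receptor of neutrophils and monocytes, had log2 intensities of 4.74, 4.71, 4.63 and 4.44 in deleted livers, against 4.89, 4.64, 4.61 and 4.56 in control livers. Its lowest value came from deleted 4 and its highest from control 1, and the log2 fold change of −0.045 (SE 0.09, 95% interval −0.24 to 0.15) was 0.0267 without control 1 and 0.0183 without deleted 4. For all of these genes the adjusted p was between 0.963 and 0.991.

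**Figure D3:**
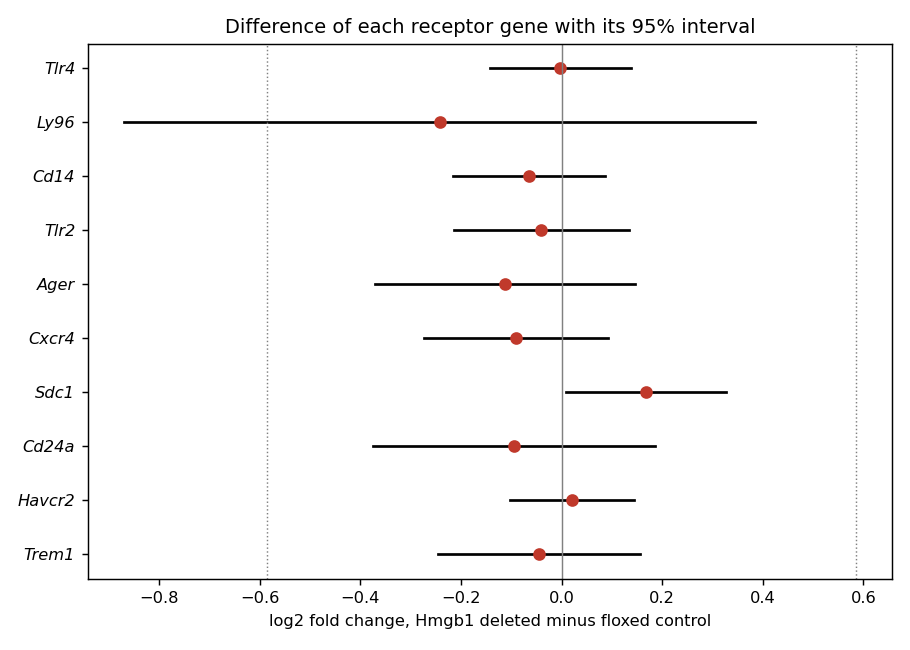
Log2 fold change of each receptor gene, Hmgb1 deleted minus floxed control (red points), with its 95% interval from limma (black lines) and dotted lines at 1.5-fold in either direction. The interval of Sdc1, 0.0084 to 0.33, is the only one that leaves out 0, without passing over all genes, and that of Ly96, −0.87 to 0.38, is the widest.

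**Figure D4:**
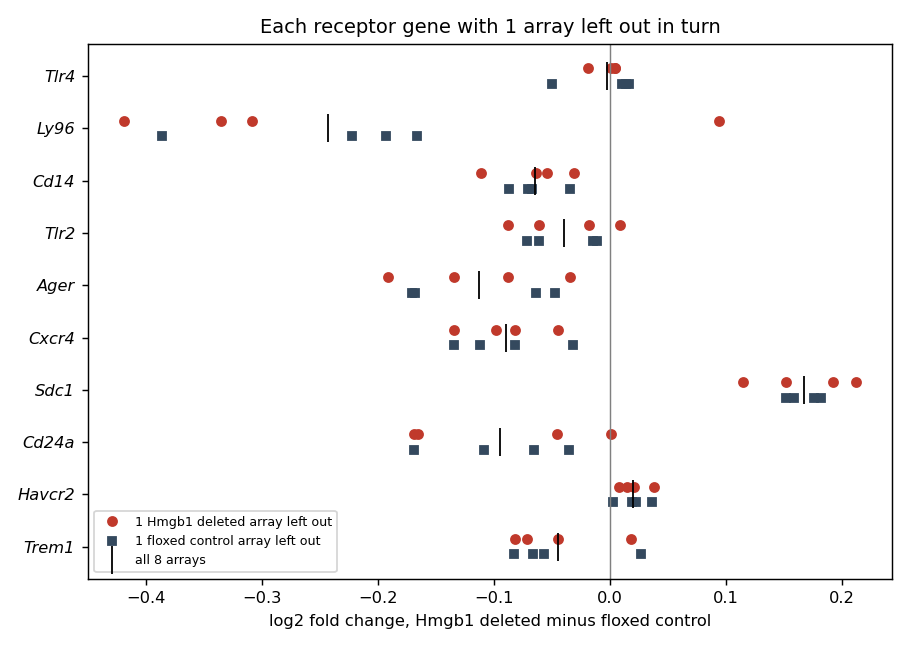
Log2 fold change of each receptor gene on all 8 arrays (black bars), with 1 Hmgb1 deleted array left out (red circles) and with 1 floxed control array left out (blue squares). Ly96 turns positive, at 0.094, only without deleted 3, and Sdc1 stays between 0.115 and 0.212.

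Other genes of the receptors' pathways were then examined in 9 lists that held 128 measured genes. In limma 0 of the 128 passed over all genes (background 0.692%), and 15, or 11.7%, had an unadjusted p under 0.05 (background 9.46%). Of these genes 67 were higher, 60 lower and 1 equal in deleted livers, with a median log2 fold change of 0.0038 against 0.0 for all genes. Among all genes 9773 were higher, 9928 lower and 237 equal. None of the genes named in the next paragraphs passed over all genes, and their values are given with the adjusted p. They were named for having the smallest p of their list, which favours groups that do not overlap. Of all genes tested 5.57% had groups without overlap.

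Downstream of the Toll-like receptors, 10 of 21 adaptors and signal transducers were higher and 11 lower in deleted livers, with a median log2 fold change of −0.0025. Irf3, the transcription factor that the adaptor TRIF activates, had log2 intensities of 8.69, 8.82, 8.94 and 8.82 in deleted livers, against 8.47, 8.56, 8.57 and 8.62 in control livers, groups that did not overlap (log2 fold change 0.262, SE 0.068, adjusted p = 0.145). Tab2, an adaptor of the kinase TAK1, had −0.243 (adjusted p = 0.225) and the kinase Irak1 0.168 (adjusted p = 0.364), each also without overlap. Among other Toll-like receptors and genes of lipopolysaccharide handling, 9 of 15 were higher and 5 lower, with a median of 0.0275. Cd180, a Toll-like receptor relative of B cells and macrophages, had log2 intensities of 6.66, 6.57, 6.76 and 6.62 in deleted livers, against 6.27, 6.45, 6.39 and 6.44 in control livers (log2 fold change 0.265, SE 0.067, adjusted p = 0.136). Lbp, the hepatocyte protein that brings lipopolysaccharide to CD14, had −0.31 (SE 0.098, adjusted p = 0.254), and Cd36, a scavenger receptor that works with TLR2, had 0.462 (SE 0.18, adjusted p = 0.412).

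In the list of RAGE ligands, signalling and shedding, 5 of 14 genes were higher and 9 lower, with a median log2 fold change of −0.0213. Diaph1, the formin that binds the inner tail of RAGE, had 0.21 (SE 0.074, adjusted p = 0.325). Mmp9, a protease reported to shed RAGE, had −0.27 (adjusted p = 0.285) and Glo1, which detoxifies the precursor of glycation products, −0.163 (adjusted p = 0.598). The Mmp9 probe set was dim, brighter than 92.6% of the olfactory receptor genes. The CXCR4 axis had 5 of 10 genes higher and 5 lower, with a median of 0.0075. Cxcl12, the ligand, had log2 intensities of 9.12, 9.16, 9.07 and 9.17 in deleted livers, against 9.20, 9.18, 9.34 and 9.28 in control livers, without overlap but with a log2 fold change of only −0.12 (SE 0.061, adjusted p = 0.628). The G protein subunits that CXCR4 couples to had −0.135 for Gnai3 (adjusted p = 0.761) and 0.08 for Gnai2 (adjusted p = 0.825).

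Partners of TREM-1 and TIM-3 were higher for 10 of 14 genes and lower for 4, with a median log2 fold change of 0.0188 and 0 genes with an unadjusted p under 0.05. The split was 7 and 7 without deleted 2, deleted 3 or control 2, and 13 higher and 1 lower without deleted 4. Treml4, a relative of Trem1, had 0.13 (adjusted p = 0.902, and 0.0458 to 0.236 with 1 array left out), the phosphatidylserine receptor Timd4 of resident macrophages 0.0575 (adjusted p = 0.963), and Tyrobp, the adaptor DAP12 through which TREM-1 signals, 0.0425 (adjusted p = 0.97). CD24 partners and Siglec signalling genes were higher for 6 of 8, with a median of 0.0625 and again 0 genes with an unadjusted p under 0.05. With 1 array left out 4 to 7 of these 8 were higher. Siglec1 of macrophages had 0.20 (adjusted p = 0.665, and 0.102 without deleted 3), Siglece 0.143 (adjusted p = 0.735) and Neu1, a sialidase, −0.105 (adjusted p = 0.687). Other surface partners reported for HMGB1 were higher for 2 of 7 and lower for 5, with a median of −0.04. Cd163, the haemoglobin and haptoglobin scavenger of macrophages, had −0.193 (adjusted p = 0.679, and −0.303 to −0.116 with 1 array left out), Hp, haptoglobin, −0.11 (adjusted p = 0.697) and Plg, plasminogen, −0.0675 (adjusted p = 0.924), and after quantile normalization again Hp had −0.0175 and Plg 0.0455, with 4 of the 7 genes higher.

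Syndecans and heparan sulfate enzymes were higher for 11 of 15 genes, with a median log2 fold change of 0.102. Sdc4, another heparan sulfate syndecan of liver, had log2 intensities of 10.67, 10.86, 10.90 and 10.68 in deleted livers, against 11.30, 11, 11.02 and 11.11 in control livers. Each deleted value of Sdc4 lay below each control value, with a log2 fold change of −0.33 (SE 0.085, adjusted p = 0.143), against 0.167 for Sdc1. Sdcbp, syntenin, which binds the tails of syndecans, had −0.207 (SE 0.066, adjusted p = 0.263), also without overlap, and Hs2st1, a heparan sulfate sulfotransferase, had 0.207 (adjusted p = 0.338). Of the 24 NF-kappaB target genes of inflammation, 9 were higher and 15 lower, with a median of −0.0288, whereas without control 1 it was 15 higher and 9 lower, with a median of 0.0437. Saa3, an inducible serum amyloid A, had log2 intensities of 6.77, 6.79, 6.92 and 6.80 in deleted livers, against 7.01, 7.22, 7.17 and 7.04 in control livers (log2 fold change −0.29, SE 0.069, adjusted p = 0.109, and 0.0429 without control 1). Birc3, an inhibitor of apoptosis, had 0.262 (adjusted p = 0.234) and the chemokine Ccl3 0.217 (adjusted p = 0.475). The Ccl3 probe set was dim, brighter than 86.9% of the olfactory receptor genes.

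**Figure D5:**
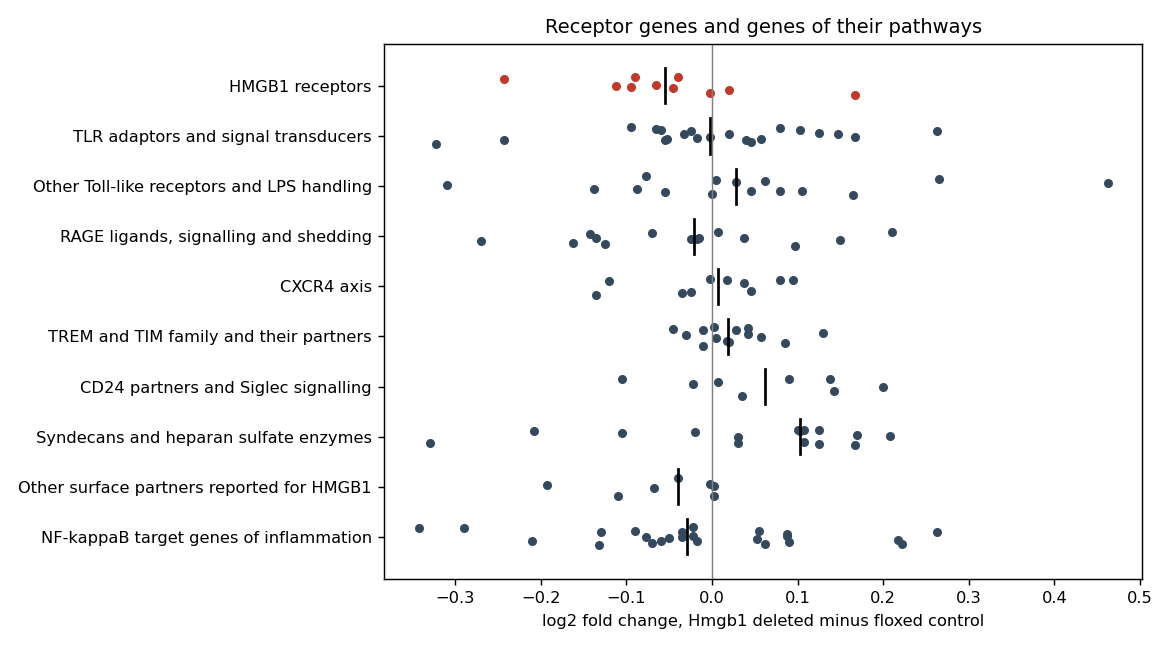
Log2 fold change, Hmgb1 deleted minus floxed control, of the 10 receptor genes (red) and of the genes of 9 pathway lists (blue), 1 point per gene with a black bar at each median and small vertical offsets for legibility. The medians lie between −0.055 for the receptors and 0.102 for syndecans and heparan sulfate enzymes, and none of the genes drawn passed over all genes.

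Markers of the cells that carry the receptors were examined beside them. Kupffer cell and macrophage markers were higher for 11 of 18 genes with 0 past the threshold (1 with the replicate block, Mpeg1, named after its value was seen), and their mean log2 intensity was 8.46 to 8.59 on deleted and 8.50 to 8.61 on control arrays. With 1 array left out 8 to 12 of the 18 were higher. Slc40a1, the iron exporter, had a log2 fold change of −0.25 (adjusted p = 0.158), Vsig4 −0.228 (adjusted p = 0.325) and Lyz2, lysozyme, −0.35 (adjusted p = 0.37). Neutrophil and monocyte markers were at 5.21 to 5.28 on deleted and 5.18 to 5.31 on control arrays. Only 1 of 14 was brighter than 95% of the olfactory receptor genes, against 60.4% of all genes. In that list 10 genes were higher and 4 lower, and 6 to 13 were higher with 1 array left out. There 0 genes passed, with Chil3 at 0.11, Elane at 0.065 and Plac8 at 0.122. T, B, NK and plasma cell markers were at 5.44 to 5.61 on deleted and 5.49 to 5.60 on control arrays. Only 6 of 18 were brighter than 95% of the olfactory receptor genes, against 60.4% of all genes. In that list 9 genes were higher and 9 lower, and 0 of 18 passed the threshold, with Cd4 at −0.215, Ncr1 at 0.0825 and Cd79a at 0.095. Ncr1 was brighter than 51.1% and Cd79a than 64.5% of the olfactory receptor genes.

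Sinusoidal endothelial markers were lower for 16 of 16 genes in deleted livers, against 49.8% of all genes. Their mean log2 intensity was 8.82 to 8.99 on deleted and 9.03 to 9.21 on control arrays, without overlap. Before adjustment 9 of the 16 had a limma p under 0.05, against 9.46% of all genes. In limma 1 of the 16 passed, against 0.692% of all genes. The lectin gene Clec4g fell by 0.615 on the log2 scale (SE 0.076, limma adjusted p = 0.00628). Averaging the probe sets of Clec4g gave −0.265 and an adjusted p of 0.121, which ended the call. Lyve1 had −0.445 (adjusted p = 0.137) and Fcgr2b −0.195 (adjusted p = 0.30). With the replicate number as a block Lyve1 had an adjusted p of 0.0171, and 2 of the 16 and 325 of all genes passed. Cholangiocyte markers were lower for 6 of 9 and higher for 3, at 6.11 to 6.30 on deleted and 6.31 to 6.34 on control arrays. The split was 5 higher and 4 lower without control 1, with a median log2 fold change of 0.0033, and 4 higher and 5 lower without deleted 4. Of the 9, 5 were brighter than 95% of the olfactory receptor genes, against 60.4% of all genes. In that list Sox9 had −0.35 (adjusted p = 0.0854, and 0.0102 without control 1), Aqp1 −0.188 and Epcam −0.193. Cd24a, not in the list, had −0.095. Epcam was brighter than only 70.7% and Cd24a than 63.3% of the olfactory receptor genes. Hepatic stellate and fibroblast markers were lower for 11 of 15 and higher for 4, at 8.07 to 8.18 on deleted and 8.10 to 8.18 on control arrays. Without deleted 1 the split was 8 higher and 7 lower. In that list Dcn had −0.17, Ngfr 0.195 and Rgs5 −0.27, the last called without control 1 (−0.39, adjusted p = 0.0391). Hepatocyte markers were lower for 13 of 15, at 12.68 to 13.08 on deleted and 13.03 to 13.09 on control arrays, with Ttr at −0.25, Itih2 at −0.188 and Pck1 at −0.22, whereas Sdc1 had 0.167. Deleted 4 was the lowest of all arrays for these markers, and its brightest gene was at 13.41, against 14.21 to 14.32 on the other deleted and 14.27 to 14.32 on the control arrays. Quantile normalization again, which equalises the top of the scale, left 8 of the 15 higher and 7 lower, with Ttr at −0.122, Itih2 at −0.0866, Pck1 at −0.107 and Sdc1 at 0.185. Without deleted 4 it was 5 higher and 10 lower, with a median of −0.0458 against −0.168 on all arrays. The part of cell composition in the values of the receptor genes was not tested.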

How the data were processed

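Liver RNA samples of mice were hybridised to 8 arrays after labelling with biotin (Ambion WT Expression kit, per the labels' protocols). The authors deposited log2 intensities made with RMA, per the submitters' processing notes. For its version and the genome build, the sources used here give nothing. Of 35556 probe sets, 21789 had exactly 1 gene symbol, 1621 several and 12146 none. Each gene was represented by its single-symbol probe set with the highest mean over the 8 arrays, which gave 19938 genes. Dim probe sets were kept.

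Deleted livers (4 arrays) were tested against floxed controls (4 arrays) in limma 3.58.1 under R 4.3.3, by a 2-sided moderated test with no covariate and with Benjamini-Hochberg adjustment over all genes tested. Differences of log2 means, deleted minus control, are given as fold changes. Whether arrays came from separate animals is not stated, and p-values then reflect only the spread among these 8 arrays, which may be technical. Arrays give no read depth, and their number limits the precision. Scripts were tested on simulated arrays. The receptor genes, the lists and the tests were chosen with earlier results of these data known. Of 247 listed genes 230 were measured. Genes named are the receptors, Hmgb1, the 3 genes with the smallest p in each list plus any past the threshold, and, for each receptor brighter than 95% of olfactory receptor genes, the 2 genes with the most similar values. Same-numbered arrays deviated together for numbers 1 and 4 (correlations of 0.447 and 0.422) but not for 2 and 3 (0.0652 and −0.0814), so the numbers were not taken as pairs. Other settings tried were all single-symbol probe sets, averaging probe sets per gene, a dim-gene filter, a further quantile normalization, median centring, a variance trend, a robust prior variance, array weights, the replicate block and each array left out. Tables were made in Python 3.11.15 and plots in matplotlib 3.10.9.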

Additional observations from a re-analysis of the deposited data

Results flagged for a closer look

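The values listed here stood far off from the remaining 3 arrays of their group, judged by the distance to the closest array as a share of the group's span. There were 8 among 118 groups of 4 arrays, and about 1 group in 20, or 5.9, would show one by chance. Floxed control 1 accounted for 4 of the 8.

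Among the receptor genes only Tlr4 was singled out, at a log2 intensity of 5.33 on deleted 4 against 5.26 to 5.27 on the other deleted arrays, and at 5.14 on floxed control 1 against 5.32 to 5.34 on the other controls. On floxed control 1, Gnai3 had 9.12 against 9.42 to 9.48, Sdcbp 9.50 against 9.68 to 9.70 and Itih2 12.29 against 12.38 to 12.39 on the other controls. Rgs5 had 7.76 on deleted 1 against 7.98 to 8.01 on the other deleted arrays. Treml4 had 7.88 on floxed control 3 against 7.60 to 7.64, and Epcam 5.38 on floxed control 2 against 5.08 to 5.12 on the other controls.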

How the results depend on the processing

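The count of receptor genes past the threshold was 0 in all 17 alternatives, with 0.17 as the lowest adjusted p of any of them. Of 164 alternative values of the receptor genes 150 kept their sign and 14 changed it. The count of all genes past the threshold, 138, became 264 after quantile normalization again, 61 with arrays centred on their medians, 526 with array weights and 325 with the replicate block, which changed no receptor gene's call. Leaving out deleted 1, 2, 3 or 4 gave 98, 67, 53 or 37 genes, and leaving out control 1, 2, 3 or 4 gave 321, 82, 71 or 42. The count of pathway genes past the threshold was 3 with array weights (Irf3, Saa3 and Sdcbp) and lay between 0 and 1 with 1 array left out, Saa3 without control 1. The fold change of Hmgb1 with 1 array left out ran from −1.01 to −0.773, and the dim-gene filter left it out, as it did all receptor genes except Ager, Tlr2, Ly96 and Sdc1. Among the other 48 genes named by the rule for lists, Clec4g lost its call with the mean of its probe sets. Lyve1 was called with the replicate block (adjusted p = 0.0171), Rgs5 with array weights (0.0427), and Sox9 after quantile normalization again (0.042) and with array weights (0.00553).

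Signs changed as follows. Tlr4 had 0.0137 after quantile normalization again, 0.0175 after median centring, and −0.05 to 0.0167 with 1 array left out. With 1 array left out Tlr2 ran from −0.0883 to 0.00833, Cd24a from −0.169 to 0.000833, Ly96 from −0.419 to 0.0942, Trem1 from −0.0833 to 0.0267 and Timd4 from −0.00583 to 0.0967. Trem1 had 0.0309 with array weights and Plg 0.0455 after quantile normalization again. Centring moved every difference by 0.02, which by itself gives the Tlr4 value there, and the cause of the other changes was not tested. Quantile normalization again also changed the split of the CXCR4 axis to 7 higher and 3 lower. For Tlr4, Cd24a, Trem1 and Havcr2 the signal over background limits what the comparison can show.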

Other observations

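The low Ly96 value on deleted 3 was chosen for a closer look after its values were seen. Ly96 there lay 1.29 log2 units below the mean of the other 7 arrays, and 10 of 19938 genes, Ly96 included, had a difference at least as low. The 6 tested genes next to it on the chromosome were set beside it. Eloc, a subunit of elongin, had a log2 intensity of 8.26 on deleted 3, against 9.11 to 9.13 on the other deleted and 8.76 to 9.32 on the control arrays, and so was also lowest there. Tmem70, which lies between Eloc and Ly96 in the order of tested genes, had 8.41 on deleted 3, against 8.43 to 8.46 on the other deleted and 8.29 to 8.51 on the control arrays. Ube2w, Jph1, Gdap1 and Pi15 differed on deleted 3 by −0.139 to 0.0271 from the mean of the other arrays.

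The genes whose values over the 8 arrays were most like those of each receptor brighter than 95% of the olfactory receptor genes were named as a description, by Pearson's r over 8 arrays and out of 19938 genes. For Sdc1 they were Hdhd5 (r = 0.98) and Aco1 (r = 0.979), the cytosolic aconitase, and for Ly96 Ccdc58 (r = 0.985) and Rab5if (r = 0.976). For Ager they were Oc90 (r = 0.986) and S100b (r = 0.984), whose own probe set was dim. For Tlr2 they were Setbp1 (r = 0.975) and the olfactory receptor Olfr1447 (r = 0.969), for Cxcr4 Sytl4 (r = 0.982) and Gm11190 (r = 0.98), and for Cd14 Ippk and Snora30 (r = 0.954 each). Of these 12 genes 6 were not brighter than 95% of the olfactory receptor genes, whereas 60.4% of all genes were. The 12 correlations ran from 0.954 to 0.986. How high the best of 19938 correlations over 8 arrays would be without any link was not tested.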
